A study of Mus musculus with 9 samples.

Results

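The phagocyte NADPH oxidase was followed through 6 of its genes, Cybb, Cyba, Ncf1, Ncf4, Rac1 and Rac2, of the 23420 gene symbols in the deposited table. They were chosen by name, with no measured value in the rule but with earlier results of these data known. All 6 passed the filter for testing, an RPKM (reads scaled by gene length and library size) of at least 1 in at least 2 libraries, which left 10868 genes. The transcripts were sequenced in 9 libraries, each made from 100 marrow cells of C57BL/6 mice that had been sorted for Mac1, the integrin chain encoded by Itgam that marks granulocytes and monocytes. The DKOITD group (n = 4) had the genotype Ezh2 fl/fl Runx1 fl/fl with Rag1Cre and with 1 Flt3 allele that carries an internal tandem duplication (ITD). Libraries named ITD (n = 2) had the same floxed and Flt3 ITD alleles without Cre. The WT group (n = 3) had the floxed alleles alone, so every group was homozygous for both floxed genes. Rag1 is a gene of lymphoid progenitors, so the share of sorted Mac1+ cells in which Cre had acted is not given by the genotype. The labels do not state that libraries of a group came from separate animals, so each p-value speaks only of spread among libraries, which may be technical.

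The phagocyte oxidase moves electrons from NADPH across the membrane to oxygen and so makes superoxide, the first product of the respiratory burst of neutrophils and macrophages. Cybb encodes its catalytic chain and Cyba the smaller chain that stabilises it, and together they form the membrane flavocytochrome. In a resting cell Ncf1 and Ncf4 are in the cytosol. After a stimulus Ncf1 is phosphorylated and brings the complex to the membrane, Ncf4 binds a phosphoinositide of the phagosome, and a Rac GTPase loaded with GTP completes the active enzyme. Rac2 is largely restricted to blood cells and is the main Rac of mouse neutrophils, whereas Rac1 is expressed in most cells. Loss of Cybb, Cyba, Ncf1 or Ncf4 causes chronic granulomatous disease in humans.

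Cybb and Ncf1 are known targets of PU.1 and of interferon-responsive factors, whose own transcripts were measured in the same libraries. Promoters of Cybb, Ncf1 and Cyba are shown, the only oxidase genes matched by symbol in the promoter reference. Each runs from 250 bases before to 50 bases after the gene's start in RefSeq annotation of GRCm38.p6, and is given 5′ to 3′ on the strand of the gene. Capitals mark the interferon core, GAAA followed after any 2 bases by a second GAAA, and the PU.1 core, GAGGAA, both searched on either strand, so that they may also be read as their reverse complements. The interferon core was held by 3.44% of 32851 promoters of the same length and GAGGAA by 28.3%.
Cybb promoter, chrX:9469275-9469574, minus strand: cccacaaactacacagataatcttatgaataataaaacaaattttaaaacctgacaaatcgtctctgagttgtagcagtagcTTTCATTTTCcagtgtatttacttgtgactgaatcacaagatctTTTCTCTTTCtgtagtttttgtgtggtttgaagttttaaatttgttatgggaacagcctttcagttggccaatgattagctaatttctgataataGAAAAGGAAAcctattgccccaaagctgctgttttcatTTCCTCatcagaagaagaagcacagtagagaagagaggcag
Ncf1 promoter, chr5:134229576-134229875, minus strand: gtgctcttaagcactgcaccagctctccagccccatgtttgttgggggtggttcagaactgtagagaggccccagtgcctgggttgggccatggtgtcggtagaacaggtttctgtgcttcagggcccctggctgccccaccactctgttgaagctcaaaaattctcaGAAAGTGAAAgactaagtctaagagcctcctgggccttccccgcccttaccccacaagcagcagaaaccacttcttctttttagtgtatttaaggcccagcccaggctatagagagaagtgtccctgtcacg
Cyba promoter, chr8:122432891-122433190, minus strand: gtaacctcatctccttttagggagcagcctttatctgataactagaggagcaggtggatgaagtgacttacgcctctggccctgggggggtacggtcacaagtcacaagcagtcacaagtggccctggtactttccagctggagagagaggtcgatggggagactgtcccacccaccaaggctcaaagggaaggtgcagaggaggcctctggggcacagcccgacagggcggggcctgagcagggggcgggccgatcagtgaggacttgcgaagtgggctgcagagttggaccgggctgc
The Cybb window held the interferon core at 3 places, which began 168, 124 and 29 bases before the start, and GAGGAA once, 10 bases after it. It also held CCAAT, found in 37.4% of promoters and left in lower case, 56 bases before the start. The Ncf1 window held the interferon core once, 82 bases before the start, and no GAGGAA. The Cyba window held none of these letters. These matches describe the sequence and say nothing of binding in these cells.

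The recovered depth was 2825728 to 23124435 reads per library, and 10393 to 11764 genes were above 0. The 2 neutrophil transcripts S100a8 and S100a9 together took 1.60% to 9.99% of reads in DKOITD, 20.6% in both ITD libraries and 23.7% to 30.3% in WT. Columns did not sum to the same RPKM. They summed to 442684 to 725674 in DKOITD, 1134460 to 1216172 in ITD and 1340289 to 1645344 in WT, so the differences of the oxidase genes were also computed with columns set to equal sums. S100a8 alone gave 21751 to 170576 of that RPKM in DKOITD, 425929 and 467998 in ITD and 518857 to 725585 in WT. Equal sums therefore also carry the level of this gene into the values of all others. WT library 2 stood apart from the other libraries, with a median correlation of 0.759 against 0.815 to 0.881 for the rest. Itgam was present in every library, at 10.98 to 39.0 RPKM in DKOITD, 78.1 and 97.3 in ITD and 90.3 to 143 in WT. Ezh2 was at 1.54 to 18.1 RPKM in DKOITD, 12.9 and 19.0 in ITD and 2.05 to 12.4 in WT. Runx1 was at 10.4 to 17.6 RPKM in DKOITD, 4.42 in both ITD libraries and 3.53 to 13.02 in WT. Both overlapped between DKOITD and WT, and Runx1 was higher in every DKOITD library than in both ITD libraries. DKOITD and ITD did not overlap, in either direction, for 31.3% of all tested genes. A value over the whole gene includes exons outside the floxed part and so does not check the deletion. The numbers in the sample descriptions of DKOITD 1, 2 and 3 run from 228 to 274 and those of the other 6 libraries from 385 to 393. What the numbers stand for is not given, and only DKOITD 4 sets the DKOITD genotype beside the others within 1 number series.

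All of the oxidase genes were abundant. Cyba had the highest RPKM in each group, at rank 40 of 10868 in DKOITD, 30 in ITD and 31 in WT. In DKOITD the order of mean RPKM was Cyba, Cybb, Rac2, Rac1, Ncf4 and Ncf1. In WT it was Cyba, Rac2, Cybb, Ncf4, Ncf1 and Rac1. The ranges of Cybb, Rac2 and Ncf4 overlapped in WT, as did those of Ncf4 and Ncf1, and in DKOITD the ranges of Cybb, Rac2, Rac1 and Ncf4 overlapped. Ncf1 moved furthest in rank, to 800 in DKOITD, against 207 in ITD and 136 in WT. Its values rested on at least 707 reads in each library, which include PCR copies and so do not give the number of molecules sampled.

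**Figure D1:**
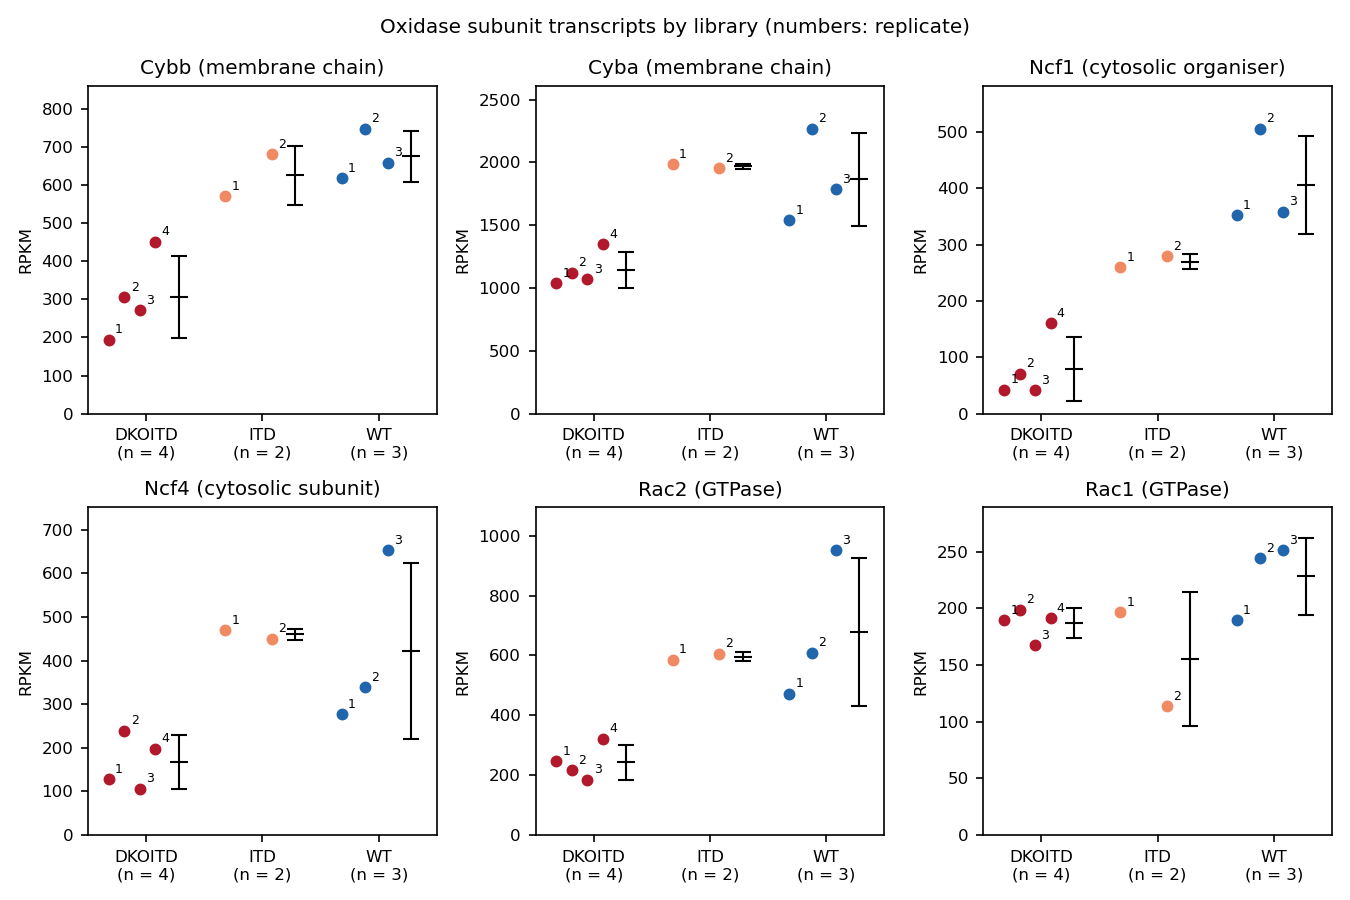
RPKM of the 6 oxidase genes on linear axes from 0, 1 panel per gene, with 1 numbered point per library and the group mean ± SD beside it, for DKOITD (n = 4), ITD (n = 2) and WT (n = 3). For every gene except Rac1 all DKOITD libraries lie below all ITD and WT libraries in the deposited RPKM; with columns scaled to equal sums, Cybb, Cyba and Ncf4 are higher on average in DKOITD than in WT.

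The membrane flavocytochrome was lower in DKOITD than in WT in the deposited RPKM. Cybb, the catalytic chain, had 194, 306, 273 and 452 RPKM in DKOITD, 572 and 682 in ITD, and 619.9, 749 and 659.9 in WT. Each DKOITD library was below each library of the other groups, and ITD overlapped WT. Cybb averaged 306 ± 108 RPKM in DKOITD (SD, n = 4) and 676 ± 66.2 in WT (SD, n = 3) and fell by 1.20 ± 0.29 (SE) on the log2(RPKM + 1) scale (limma, adjusted p = 0.0218), but was 0.20 higher with columns at equal sums. Of all genes tested, 9.33% had a lower difference. The call was lost without DKOITD 1 (adjusted p = 0.0651), DKOITD 3 (0.0632) or WT 2 (0.0625).

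Cyba, the stabilising chain, had 1036, 1121, 1070.1 and 1348 RPKM in DKOITD, 1984 and 1952 in ITD, and 1540.1, 2268 and 1788 in WT. The DKOITD libraries again lay below all the others, within a narrow range. The log2 difference of DKOITD from WT was -0.69 ± 0.24, with a 95% interval of -1.21 to -0.18, and did not pass the threshold (limma, adjusted p = 0.0743). It was 0.71 with columns at equal sums, where it was called higher (adjusted p = 0.0338), and 0.07 per recovered read. With limma-voom on recovered reads, an alternative chosen after seeing the data, Cyba was called lower (adjusted p = 0.0434).

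Ncf1, the organiser that carries the cytosolic complex to the membrane, had the largest difference of the 6 in DKOITD over WT. It had 42.5, 71.1, 41.1 and 161 RPKM in DKOITD, 261 and 279 in ITD, and 353, 506 and 359 in WT. The 3 groups did not overlap, with DKOITD lowest and WT highest, and DKOITD 4 was the DKOITD library nearest to ITD. Ncf1 averaged 78.9 ± 56.3 RPKM in DKOITD (SD, n = 4) and 406 ± 86.8 in WT (SD, n = 3) and fell by 2.56 ± 0.42 (SE) on the log2 scale (limma, adjusted p = 0.00445). Of all genes tested, 0.957% had a lower difference. The fall was called under all 4 scalings, with adjusted p of 0.00437 to 0.0175, and the log2 difference at equal sums was -1.17. It was also called with any 1 library left out, at adjusted p of 0.00115 to 0.018.

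Ncf4, the subunit with a phosphoinositide-binding domain, had 128, 239, 106 and 198 RPKM in DKOITD, 469 and 450.5 in ITD, and 277, 338 and 653 in WT. The WT values spread widely and enclosed those of ITD, and DKOITD stayed below both. Ncf4 fell by 1.30 ± 0.36 in DKOITD against WT on the log2 scale (limma, adjusted p = 0.0352), but was 0.10 higher at equal sums. Without DKOITD 1, DKOITD 3, ITD 1, ITD 2, WT 2 or WT 3 the adjusted p was 0.0543 to 0.104, so 6 of the 9 libraries each decided that call.

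The Rac GTPases load with GTP to complete the active enzyme. Rac2, the blood-cell Rac, had 248, 218, 185 and 322 RPKM in DKOITD, 586 and 606 in ITD, and 472, 609.5 and 951 in WT. All DKOITD libraries were below all others. Rac2 averaged 243 ± 58.5 RPKM in DKOITD (SD, n = 4) and 678 ± 247 in WT (SD, n = 3) and fell by 1.44 ± 0.29 (SE) on the log2 scale (limma, adjusted p = 0.0106), while at equal sums the difference was -0.04. That call was kept with any 1 library left out, at adjusted p of 0.0106 to 0.0389. Rac1, the widely expressed Rac, had 189.8, 199, 168 and 192 RPKM in DKOITD, 197 and 113 in ITD, and 189, 244 and 251 in WT. Its groups overlapped, and the log2 difference of DKOITD from WT was -0.28, with a 95% interval of -0.85 to 0.30 (limma, adjusted p = 0.499). At equal sums it was 1.12 and was called higher (adjusted p = 0.0124).

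Counted together, 4 of the 6 oxidase genes (Cybb, Ncf1, Ncf4 and Rac2) fell in DKOITD against WT in the deposited RPKM and none rose. At equal column sums Ncf1 alone was called lower, Cyba and Rac1 were called higher, and Rac2 was at -0.04. Cybb and Ncf4 were on the higher side there, and per recovered read only Ncf1 was called. In the deposited RPKM 12.7% of all tested genes were called in DKOITD over WT, 5.27% lower and 7.43% higher, or 573 and 807 genes. At equal sums, which the level of S100a8 enters, 128 genes were lower and 5009 higher. The median log2 difference was -1.25 over the oxidase genes and 0.17 over all genes. Groups did not overlap, with DKOITD lower, for 5 of the 6, against 10.9% of all genes, and 25.0% of all genes did not overlap in either direction. In bulk RNA of sorted cells, fewer cells of a type and less RNA per cell cannot be told apart. Marker lists moved with this comparison. Of 13 tested neutrophil granule genes 11 were lower and none higher, and their summed RPKM was 37378 to 271260 in DKOITD, 694768 to 740328 in ITD and 894085 to 1199500 in WT, with no marker at 0 throughout a group. Of 15 tested dendritic cell genes 14 were higher and none lower. Their summed RPKM was 9476 to 38257 in DKOITD, 4223 to 11380 in ITD and 44.3 to 1208 in WT, and Zbtb46, Ccr7 and Xcr1 were at 0 in every ITD and WT library. In DKOITD over ITD 2 dendritic cell genes, Clec10a and Ccr7, were called higher, and in ITD over WT 1, Cd209a. Clec10a and Ccr7 each lost that call without DKOITD 1, DKOITD 3, ITD 1, ITD 2 or WT 3, at adjusted p of up to 0.236 and 0.248, and Cd209a without ITD 2, at 0.157. The part of these cell types in the oxidase result was not tested.

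**Figure D2:**
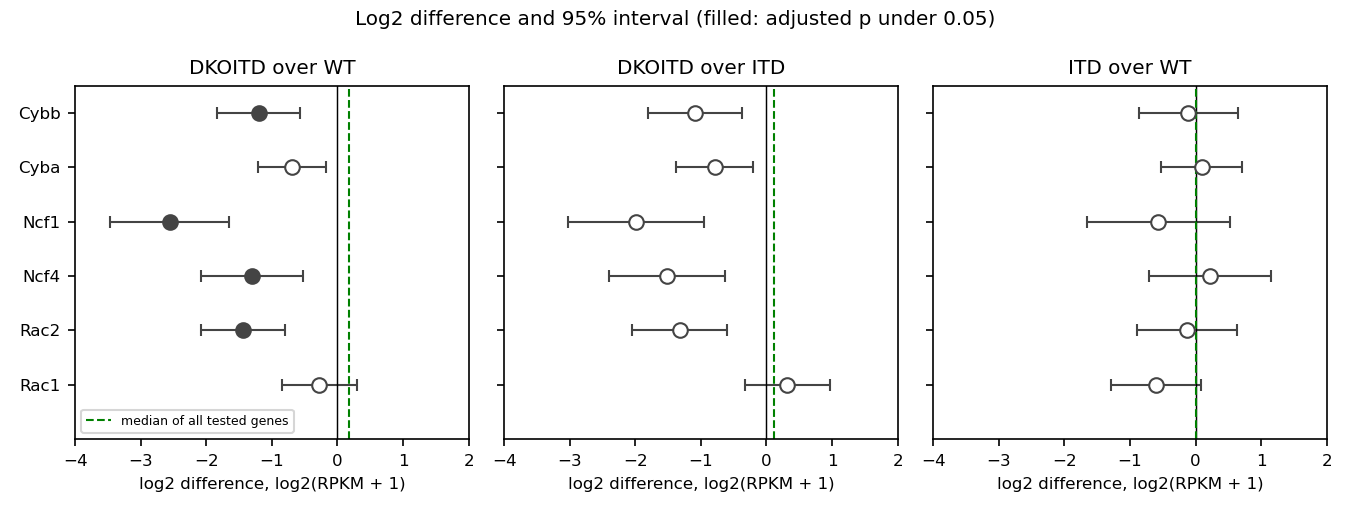
Log2(RPKM + 1) differences of the 6 oxidase genes with 95% intervals for DKOITD over WT, DKOITD over ITD and ITD over WT, with a dashed line at the median of all tested genes. Filled points, past an adjusted p of 0.05, are Cybb, Ncf1, Ncf4 and Rac2 in DKOITD over WT, all below 0; at equal column sums the differences of Cybb, Cyba, Ncf4 and Rac1 in that comparison are above 0.

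The same genes were next compared between DKOITD and ITD, which both carry the Flt3 ITD allele and differ in Cre. No oxidase gene passed the threshold with limma, where 0.212% of all tested genes were called, 0.0552% lower and 0.156% higher, and 5 of the 6 had an unadjusted p under 0.05, as had 1701 of all 10868 genes. Each of the 4 DKOITD libraries was below both ITD libraries for Cybb, Cyba, Ncf1, Ncf4 and Rac2, a pattern held by 14.0% of all genes. At equal sums the differences were -0.93 for Ncf1, -0.46 for Ncf4 and -0.25 for Rac2. In the deposited RPKM the log2 difference was -1.99 for Ncf1, with a 95% interval of -3.03 to -0.96 (limma, adjusted p = 0.0714). It was -1.52 for Ncf4 (-2.41 to -0.64, adjusted p = 0.0955) and -1.32 for Rac2 (-2.04 to -0.60, adjusted p = 0.0839). The intervals of these 3 genes exclude 0 before adjustment. Cybb differed by -1.09 (adjusted p = 0.127) and Cyba by -0.79 (adjusted p = 0.179), and at equal sums by -0.02 and 0.28. Rac1 differed by 0.32, with an interval of -0.33 to 0.97, and by 1.39 at equal sums (adjusted p = 0.0283). Without DKOITD 4, Ncf1 was called lower in DKOITD than in ITD (adjusted p = 0.0116).

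Between ITD and WT, which differ in the Flt3 ITD allele, no oxidase gene passed the threshold and none had an unadjusted p under 0.05. Only 1 gene of all tested was called by limma, 0.0092%, and 862 had an unadjusted p under 0.05. Ncf1 differed by -0.57, with a 95% interval of -1.66 to 0.52, and was the only oxidase gene whose groups did not overlap, as for 8.99% of all genes with ITD lower. Rac1 differed by -0.60 (-1.28 to 0.09), with ITD library 2 at 113 RPKM below all others. Cybb, Cyba, Ncf4 and Rac2 differed by -0.11, 0.10, 0.22 and -0.12. These intervals, of -0.86 to 0.64 for Cybb and -0.71 to 1.15 for Ncf4 for example, leave room for differences of either sign. The comparisons with DKOITD share its 4 libraries, and those with WT and ITD share theirs.

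A ratio of 2 genes within a library does not depend on how a column was scaled. The RPKM ratio of Rac2 to Rac1 was 1.31, 1.095, 1.103 and 1.68 in DKOITD, 2.98 and 5.34 in ITD, and 2.50, 2.50 and 3.79 in WT. In every DKOITD library it was below every ITD and WT library. The mean log2 ratio was 0.35 ± 0.29 in DKOITD (SD, n = 4) and 1.52 ± 0.35 in WT (SD, n = 3), a difference of -1.17. The two-sided exact permutation p was 0.0286, which 4 against 3 libraries cannot go below, and 0.193 when adjusted over 9 ratio tests. Against ITD, at 1.99 ± 0.59 (SD, n = 2), the difference was -1.64 (exact p = 0.0667, the smallest possible). ITD and WT differed by 0.47 (exact p = 0.3). After adjustment none of the ratio tests passed.

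The ratios within the other pairs were less separated. The log2 ratio of Cybb to Cyba, the chains of the flavocytochrome, was -1.96 in DKOITD, -1.65 in ITD and -1.45 in WT, and DKOITD differed from WT by -0.51 (exact permutation test, p = 0.0857). The RPKM ratio of Ncf4 to Ncf1 was 3.01, 3.37, 2.58 and 1.23 in DKOITD, 1.80 and 1.61 in ITD, and 0.785, 0.669 and 1.82 in WT. Ncf4 exceeded Ncf1 in all 4 DKOITD and both ITD libraries and in WT 3. The log2 ratio differed by 1.26 between DKOITD and WT (exact permutation test, p = 0.0857).

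**Figure D3:**
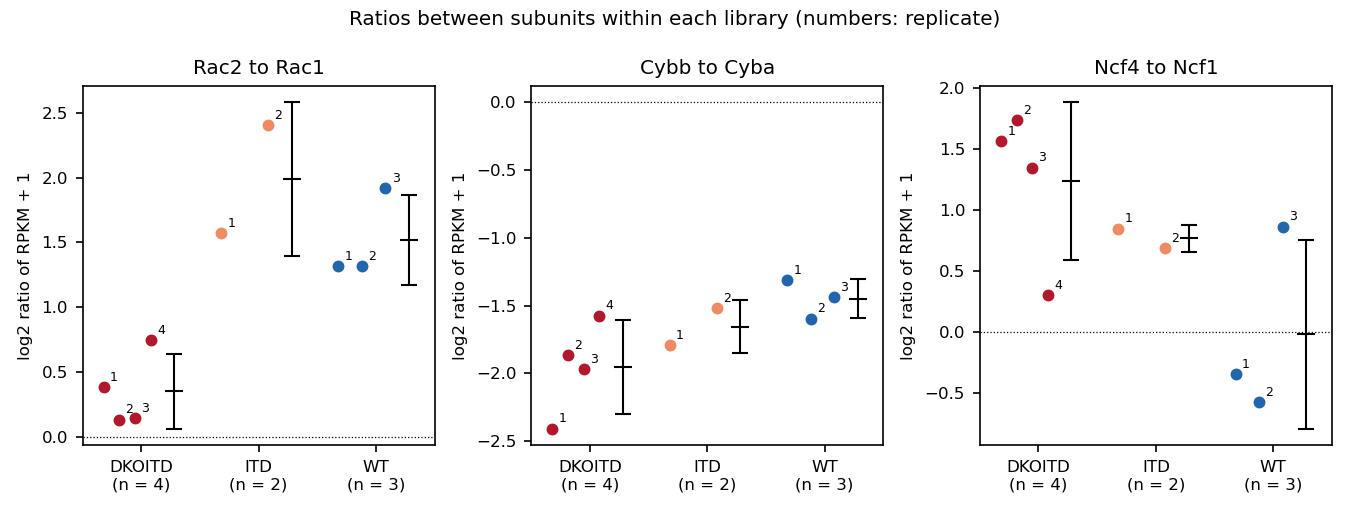
Log2 ratios (RPKM + 1 of each gene) of Rac2 to Rac1, Cybb to Cyba and Ncf4 to Ncf1, with 1 numbered point per library and the group mean ± SD beside it, for DKOITD (n = 4), ITD (n = 2) and WT (n = 3). The 4 DKOITD libraries have RPKM ratios of Rac2 to Rac1 of 1.095 to 1.68, below the 2.50 to 5.34 of all others.

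The size of each difference depended on the scaling. Equal sums and scaling per recovered read multiply each column by 1 factor, so they shift all genes nearly alike and leave their order in place by construction. The median log2 difference of all genes, DKOITD over WT, was 0.17 in the deposited RPKM, -0.03 after quantile normalization, 0.74 per recovered read and 1.21 at equal sums. Over those 4 scalings Ncf1 was at -2.56, -2.49, -1.80 and -1.17. Ncf1 was thus below 0 in each, and set against the median of all genes it was at -2.73, -2.46, -2.54 and -2.37. Rac2 was at -1.44, -1.41, -0.68 and -0.04, and Cybb at -1.20, -1.09, -0.44 and 0.20. Cyba changed sign, at -0.69, -0.54, 0.07 and 0.71. Rac1 was nearest to the median of all genes, at -0.45, -0.21, -0.25 and -0.08 from it.

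**Figure D4:**
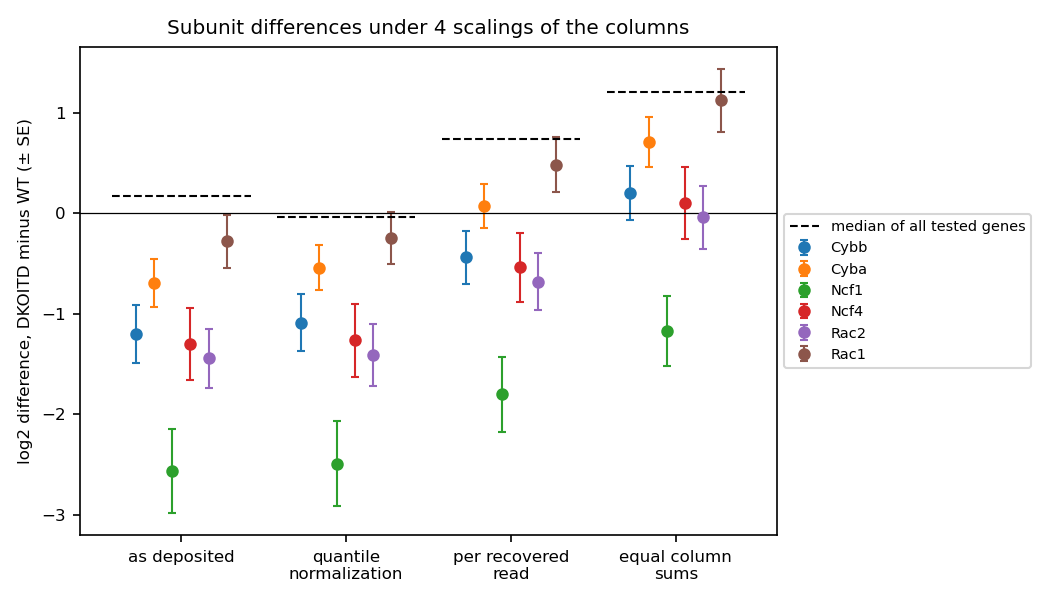
Log2 differences of the 6 oxidase genes, DKOITD over WT, under 4 scalings of the columns, as points with bars of ± SE and a dashed line at the median of all tested genes for each scaling. Ncf1 is below 0 under all 4, whereas Cyba and Rac1 are above 0 per recovered read and at equal sums, and Cybb and Ncf4 at equal sums.

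DKOITD libraries also varied among themselves. The highest DKOITD library was 3.91 times the lowest for Ncf1, 2.33 times for Cybb and 2.25 times for Ncf4, but 1.30 times for Cyba and 1.19 times for Rac1. DKOITD 4 was the highest of its group for Cybb, Cyba, Ncf1 and Rac2. It also had the highest share of S100a8 and S100a9 reads of its group, 9.99%. Within the description numbers from 385 to 393, DKOITD 4 was below every ITD and WT library for Cybb, Cyba, Ncf1, Ncf4 and Rac2 in the deposited RPKM. The share of all genes with that pattern was not computed. This order can change with the scaling, as columns summed to 725674 RPKM in DKOITD 4 and 1476888 in WT 1. With the number series as a term in the model, DKOITD over WT was -1.31 for Ncf1 (limma, adjusted p = 0.387), -1.01 for Rac2 (0.488), -0.99 for Ncf4 (0.583) and -0.58 for Cybb (0.633), and no oxidase gene was called. That fit called 4 genes higher and 0 lower of all 10868 (1065 had an unadjusted p under 0.05), so every lower call of other genes given here in DKOITD over WT was lost in it as well. Most of the higher calls given here in that comparison were lost too. The fit rests on DKOITD 4 alone for the contrast.

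The partners of the oxidase were taken from lists chosen with earlier results known. Unless stated, differences of partner and marker genes are in the deposited RPKM. Equal sums raise those of DKOITD over WT, so falls given below are smaller or reversed there. Of 6 tested genes of assembly and proton flow 1, Hvcn1, fell in DKOITD against WT and none rose. Of all genes, 5.27% were called lower and 7.43% higher. Hvcn1, the proton channel that balances the charge moved by the oxidase, had 2.17, 1.65, 1.995 and 12.1 RPKM in DKOITD, 33.0 and 20.5 in ITD, and 20.5, 36.8 and 68.1 in WT. Hvcn1 differed by -3.17 ± 0.60 (limma, adjusted p = 0.00771). Each DKOITD library was below all ITD and WT libraries. The median log2 difference of that list was -0.46. Of 9 genes of the other NADPH oxidases and their partners none passed the filter, and their summed RPKM was at most 1.03 in any library.

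NADPH is the electron donor of the oxidase. Pgd and Tkt, enzymes of the pentose phosphate pathway, which regenerates NADPH, fell by 2.38 ± 0.35 and 1.96 ± 0.36 in DKOITD against WT (limma, adjusted p = 0.00284 and 0.00735). Pgd had 42.2, 70.8, 36.7 and 84.5 RPKM in DKOITD, 226 and 243 in ITD, and 205, 394 and 309 in WT. Each DKOITD library was below each of the others. Idh2, a mitochondrial NADPH source, rose by 3.07 ± 0.87 (limma, adjusted p = 0.0395), with groups that overlapped. Its call was lost with any library but WT 3 left out, at adjusted p of up to 0.1005, and the difference ranged from 1.80 to 4.34. In all 3 of 9 tested genes fell and 1 rose, with a median of -0.86, where 5.27% of all genes were called lower and 7.43% higher.

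Exchange factors load Rac with GTP, and inhibitors hold it inactive. Of 19 exchange factors and inhibitors, Def6 (-1.88) and Arhgdib (-1.08) fell in DKOITD against WT and Dock10 (2.13) rose, with a median of -0.62. Arhgdib, an inhibitor that keeps Rac GTPases in the cytosol, was 0.32 at equal sums. Of 8 GTPases related to Rac, Rhoc (-3.47) and Rhou (-2.96) fell and none rose, with a median of -0.40. Rhoc was listed at 0 in 3 of the 4 DKOITD libraries, where the size of a log difference hangs on the pseudocount. Of 22 upstream kinases and lipases 5 fell and none rose, with a median of -0.62. The largest differences were those of Mapk3 (-2.97), the kinase ERK1, Plcb2 (-1.70), a phospholipase downstream of chemoattractant receptors, and Prkcb (-1.66), a protein kinase C that phosphorylates Ncf1. Def6 lost its call without DKOITD 1 or WT 2, at adjusted p of up to 0.0823. Arhgdib kept its call only without DKOITD 2 or DKOITD 4, Plcb2 only without WT 3, and Prkcb only without DKOITD 4 or WT 3, with adjusted p of up to 0.0927, 0.161 and 0.122. Of all genes, 12.7% were called in this comparison.

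Enzymes that remove oxidants were mixed. Of 24 tested, 5 rose and 4 fell in DKOITD against WT, where 7.43% of all genes were called higher and 5.27% lower. The median of the list was -0.06. Prdx4, a peroxiredoxin of the endoplasmic reticulum, rose by 2.02 ± 0.35 (limma, adjusted p = 0.00542). Prdx5, a peroxiredoxin of mitochondria and peroxisomes, fell by 1.75 ± 0.31 in the deposited RPKM (limma, adjusted p = 0.00655). Gpx3, a secreted glutathione peroxidase, rose by 3.53 ± 1.04 with overlapping groups (limma, adjusted p = 0.0443). The call of Gpx3 was lost with any library but WT 3 left out, at adjusted p of up to 0.156, and its difference ranged from 2.58 to 5.23 with 1 library left out.

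Transcription factors known at oxidase promoters also split. Of 15 tested, 3 fell and 1 rose in DKOITD against WT, where 5.27% of all genes were called lower and 7.43% higher. The median of the list was -0.38. Cebpe, the C/EBP factor of late granulocyte differentiation, had 25.4, 38.4, 11.6 and 32.8 RPKM in DKOITD, 104 and 62.1 in ITD, and 87.2, 137 and 242 in WT, a difference of -2.48 ± 0.45 (limma, adjusted p = 0.0068). Cebpd (-2.18) and Cebpb (-1.996) also fell. The call of Cebpb was lost without DKOITD 1, DKOITD 3, DKOITD 4, WT 1 or WT 2, at an adjusted p of up to 0.0983. Values of 2 further factors, chosen after they were seen, bear on the capitals in the promoters above. Irf8, which binds interferon-stimulated elements with PU.1 as a partner, had 69.4, 48.0, 59.8 and 28.6 RPKM in DKOITD, 21.0 and 28.1 in ITD, and 23.4, 23.9 and 9.59 in WT. It was higher in each DKOITD library than in any other, though by little between DKOITD 4 and ITD 2. Of all genes, 25.0% did not overlap between DKOITD and WT and 31.3% between DKOITD and ITD, in either direction. Irf8 rose by 1.42 ± 0.41 against WT (limma, adjusted p = 0.0419), opposite in direction to Cybb in the deposited RPKM. That call was not checked with single libraries left out. The gene of PU.1, listed under its older symbol Sfpi1, had 202, 218, 192 and 187 RPKM in DKOITD, 148 and 72.4 in ITD, and 151, 244 and 469.9 in WT, and its difference from WT was -0.38 ± 0.37 (limma, adjusted p = 0.517). In DKOITD over ITD and in ITD over WT no gene of these pathway lists was called.

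The remaining markers were read for other cells of the Mac1 gate. In DKOITD over WT 5.27% of all genes were called lower and 7.43% higher. Of 12 monocyte genes 4 rose and none fell in DKOITD against WT, with a summed RPKM of 2410 to 3771 in DKOITD, 3992 to 4145 in ITD and 2752 to 3395 in WT. Ly6c2 made up much of that sum, with 1176 to 2333 RPKM in DKOITD, 3192 and 3297 in ITD and 2367 to 2998 in WT. In all, 3 of the 12 had a difference below 0 in DKOITD over WT. The 6 primary granule genes had a median of 0.21, with 1 lower. Of 4 tested B and plasmacytoid dendritic cell genes 2 rose, and the list summed to 50.7 to 89.1 RPKM in DKOITD, 10.8 to 26.3 in ITD and 6.29 to 18.6 in WT, with Pax5 at 0 in every library. Of 2 tested T and NK cell genes 1, Nkg7, fell, a call lost without DKOITD 1, DKOITD 3 or WT 3 at adjusted p of up to 0.0746. Cd3e and Cd247 were at 0 in every library. Gzma and Ncr1 were above 0 only in WT 2, at 146 and 6.95 RPKM, and Lck was highest there, at 8.65. Of 2 tested genes of eosinophils, basophils and mast cells none was called, and Epx and Fcer1a were at 0 in every library. Of 4 tested erythroid genes 1 fell, and the list summed to 0 to 1.40 RPKM in DKOITD, 0.0468 to 2730 in ITD and 17.8 to 17163 in WT. Of the called genes of these lists, Cd68 and Fcgr1 of monocytes, Prss57 of primary granules, Tcf4 of the B and plasmacytoid list and the erythroid Beta-s lost their calls with 1 or more single libraries left out, at adjusted p of up to 0.102, 0.1197, 0.0765, 0.0547 and 0.0779. Cybb, Ncf1 and Rac2 are known to be expressed in neutrophils, monocytes and dendritic cells.

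**Figure D5:**
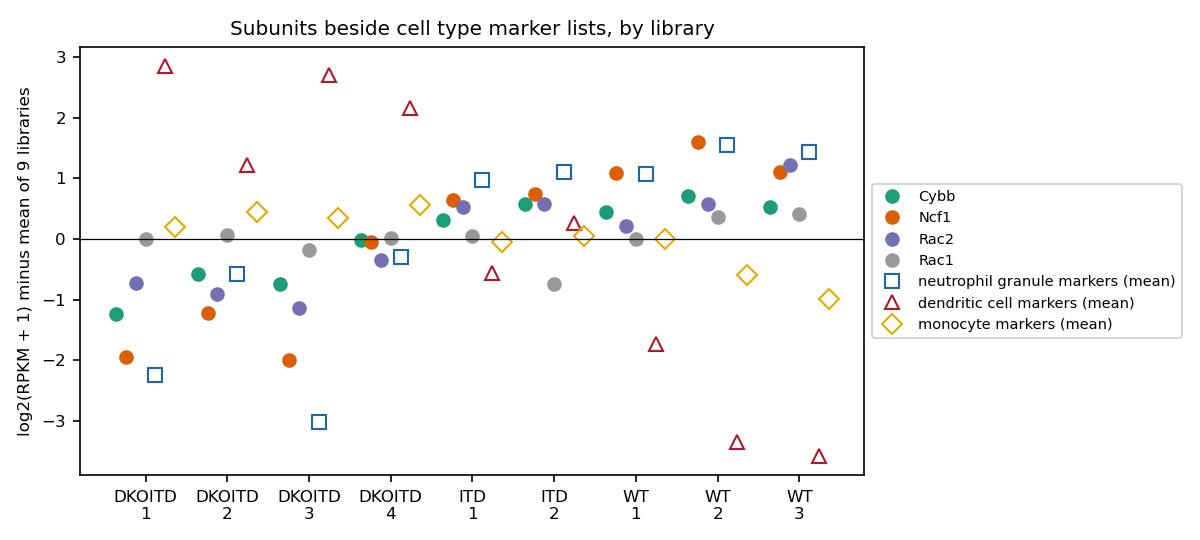
Log2(RPKM + 1) minus its mean over the 9 libraries for Cybb, Ncf1, Rac2 and Rac1 (filled points) and for the mean of the neutrophil granule, dendritic cell and monocyte marker lists (open symbols), by library. Before centring, the neutrophil granule mean is 8.16 to 10.9 in DKOITD, 12.2 and 12.3 in ITD and 12.3 to 12.7 in WT.

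The genes whose pattern over the 9 libraries was most like that of each oxidase gene were found by the root mean square difference of mean-centred log2(RPKM + 1) profiles, among 9996 genes. This is a description of likeness in libraries that share depth and column scaling. Nearest to Ncf1 were Abca13 (0.179), Arrb2 (0.250) and Rnf144a (0.260). Nearest to Cybb were Rgl2 (0.191), Midn (0.208) and Gabarap (0.213), and nearest to Cyba were Znhit1 (0.104), Cdc42se1 (0.161) and Cdc42ep3 (0.163). Ncf4 was nearest to Tcn2 (0.191), Prdx6 (0.213) and Tesk2 (0.216). Rac2 lay nearest to Osbpl2 (0.153), Vti1a (0.186) and Fam107b (0.188), and Rac1 to Snrpc (0.133), Ppp2r1a (0.139) and Cdipt (0.188). Among the oxidase genes themselves the closest pairs were Cybb with Cyba (0.314) and Ncf4 with Rac2 (0.317), and the farthest was Ncf1 with Rac1 (1.27).

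In GENCODE vM21 on mm10, Cybb lies on chrX:9435252-9487771 and Cyba on chr8:122424776-122432930, both on the minus strand. Ncf1 lies on chr5:134220053-134229625 and Rac1 on chr5:143503634-143528036, both on the minus strand. Ncf4, on the plus strand at chr15:78244801-78262580, and Rac2, on the minus strand at chr15:78559167-78572783, are on the same chromosome. Exons of Ncf1 overlap those of Gtf2ird2 by up to 193 bases, and exons of Rac1 overlap those of Daglb by up to 2309 bases, both on the opposite strand. The libraries do not mark strand, so reads in these overlaps cannot be told apart. Transcripts of Rac1 and Rac2 share no identical run longer than 29 bases.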

How the data were processed

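Each of the 9 libraries was made from 100 sorted Mac1+ cells with Smart-seq2 (per the labels' protocols), a method without strand marking. The authors deposited 1 table of RPKM by gene symbol. Per the submitters' processing notes the tools were STAR 2.4.2a, SAMtools 1.1 and HTSeq 0.6.1p1, with mm10 as build. The sources used here do not give how reads were counted or RPKM scaled. Read numbers were recovered from the deposited values: 15564 of 15566 genes gave whole reads, within 0.0001 reads, for a length of 20 to 30000 bases. The denominators of the columns were 0.703 to 1.44 times these reads. Without molecular identifiers, PCR copies are counted as separate reads.

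Groups came from the sample titles. A gene was tested if 2 or more libraries reached an RPKM of 1, which left 10868. Their log2(RPKM + 1) went into a limma 3.58.1 model (R 4.3.3, trended eBayes) of genotype group over all 9 libraries. The 3 comparisons were tested two-sided with Benjamini-Hochberg adjustment over all tested genes and a threshold of 0.05. The test was tried on simulated data. Differences on this scale understate changes of low genes. Ratios were tested with exact permutation tests that went through every split of the libraries (Python 3.11.15). Motifs were searched in RefSeq promoters of GRCm38.p6, which were matched by symbol for 3 of the 6 genes.

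All oxidase genes are named, with up to 3 called genes per list and comparison by size of difference, and the 3 most alike genes for each oxidase gene, leaving out predicted or unnamed models and ribosomal protein genes. Some genes of the lists are not reported here. The genes and lists were chosen with earlier results of these data known. Alternatives were another pseudocount, other filters, 3 other scalings, a replicate block, library weights, only the groups compared, the description number series as a term, each library left out, and voom on recovered reads, which was added after seeing the data.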

Additional observations from a re-analysis of the deposited data

How the results depend on the processing

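Of 360 values of the 6 oxidase genes under the alternatives, 315 kept direction and side of the threshold, 21 lost a call, 7 gained one and 17 reversed. For other named genes 517 of 700 were kept, 182 lost a call and 1 reversed. The 4 oxidase genes called in DKOITD over WT became 2 with no filter on low values, 1 per recovered read, 0 with the description number series as a term, 3 with the replicate block, 3 with only the groups compared, 5 with voom on recovered reads and 3 at equal sums (2 higher, 1 lower). In the deposited RPKM with 1 library left out they were 2 to 4, the lowest without DKOITD 1, DKOITD 3 or WT 2. In DKOITD over ITD the 0 called became 1 at equal sums, 1 with the replicate block (Ncf1, adjusted p = 0.0413) and 3 with library weights, and was 0 to 1 in the deposited RPKM with 1 library left out (1 without DKOITD 4). In ITD over WT it was 0 throughout.

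At equal sums the log2 differences of DKOITD over WT were 0.71 for Cyba, 0.20 for Cybb, 0.10 for Ncf4, 1.12 for Rac1 and 0.32 for Arhgdib. Cyba was 0.28 in DKOITD over ITD, and Cybb 0.22 and Rac2 0.21 in ITD over WT. Per recovered read Cyba was 0.073 and Rac1 0.49 in DKOITD over WT, and Cybb 0.10 and Rac2 0.088 in ITD over WT. Quantile normalization put Cyba at -0.0014 in ITD over WT. With 1 library left out, ITD over WT was -0.033 to 0.25 for Cyba and -0.032 to 0.59 for Ncf4 (lowest without WT 1), -0.24 to 0.016 for Cybb (highest without ITD 1) and -0.35 to 0.15 for Rac2 (highest without WT 3), and DKOITD over ITD was -0.076 to 0.71 for Rac1 (lowest without ITD 2). The cause was not tested beyond the scaling itself.

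Same-numbered libraries of DKOITD and WT deviated with correlations of -0.0210, 0.0707 and 0.0627, so the numbers were not taken as pairs. With the replicate block Ncf4 lost its call in DKOITD over WT (limma, adjusted p = 0.0655). The Rac2 to Rac1 ratio differed by -1.30 between same-numbered libraries (exact sign-flip test, p = 0.25, the smallest possible). With 1 library left out that ratio differed by -1.30 to -0.97, at the smallest p the fewer libraries allow. Groups of 2 to 4 libraries, with WT 2 apart from the rest and description numbers that nearly follow genotype, limit each comparison.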
